A study of Homo sapiens with 2 samples.

Results

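The segment of human chromosome 19 between 38 and 41 Mb, in band 19q13, held 107 of the 10836 peaks called in inflachromene-treated Panc1 cells and 132 of the 15186 peaks called in DMSO-treated cells. Members were chosen by position, as every peak of either list with its summit in that interval (hg38), and the interval itself had been picked because its peaks were dense and strong. Peak density and strength within it are therefore given as descriptions, with no test. The rest of chromosome 19, with 791 inflachromene peaks and 1019 DMSO peaks, was the comparison. The 239 peaks of both lists occupied 137 positions, 100 of them called in both lists, 5 in inflachromene alone and 32 in DMSO alone.

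Panc1 is an established line of human pancreatic ductal adenocarcinoma, and it was profiled by ChIPmentation, an immunoprecipitation of chromatin in which Tn5 transposase adds the sequencing adapters. One sample was treated with inflachromene (ICM), a small molecule known to bind the chromatin proteins HMGB1 and HMGB2, and 1 with its solvent DMSO. Cells of both were fixed with 15 mM EGS for 30 min, then with 1% formaldehyde for 10 min, and quenched with 125 mM glycine. The sources used here do not give the antibody target, the dose or the time of treatment. With 1 library per treatment there is no replicate check: each difference below compares these libraries, not the conditions, and no p-value is given for any of them.

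As background, band 19q13 is a stretch of closely packed genes, and a part of it is known as a recurrent amplification of pancreatic cancer, reported for this cell line among others, that carries PAF1, PAK4 and AKT2. PAF1 is a subunit of the complex that accompanies RNA polymerase II during elongation, PAK4 is a kinase that acts on the actin cytoskeleton, and AKT2 is a serine/threonine kinase of the phosphoinositide 3-kinase pathway. Where a stretch of genome is present in extra copies, a sequencing library holds more fragments from all of it, at peaks and between them. Copy number was not measured here, and its part in the values below was not tested.

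The strongest peaks of the segment lay over the starts of broadly used genes. The sequences of 5 of these starts are shown because they carry the highest peaks (PAF1, PLEKHG2, PSMC4), a kinase of the known amplification (AKT2) and an exact match to a long motif (SUPT5H). Each is the RefSeq window from 250 bases before to 50 bases after the annotated start, read 5′ to 3′ on the gene's strand (RefSeq, GRCh38.p14). Capitals mark matches on either strand to GGGCGG (bound by SP and KLF factors), CCAAT (the CCAAT box), CCGGAAG (ETS) or the palindromic motif of ZBTB33. PAF1 is at chr19:39391057-39391356 on the minus strand, PLEKHG2 at chr19:39412419-39412718 on the plus strand, PSMC4 at chr19:39970915-39971214 on the plus strand, AKT2 at chr19:40285296-40285595 on the minus strand and SUPT5H at chr19:39445332-39445631 on the plus strand.
PAF1: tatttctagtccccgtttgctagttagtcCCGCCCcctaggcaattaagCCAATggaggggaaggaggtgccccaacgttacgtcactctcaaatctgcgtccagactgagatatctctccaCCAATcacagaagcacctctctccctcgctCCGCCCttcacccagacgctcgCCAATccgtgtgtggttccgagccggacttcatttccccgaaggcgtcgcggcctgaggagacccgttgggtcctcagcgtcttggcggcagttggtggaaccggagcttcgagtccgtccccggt
PLEKHG2: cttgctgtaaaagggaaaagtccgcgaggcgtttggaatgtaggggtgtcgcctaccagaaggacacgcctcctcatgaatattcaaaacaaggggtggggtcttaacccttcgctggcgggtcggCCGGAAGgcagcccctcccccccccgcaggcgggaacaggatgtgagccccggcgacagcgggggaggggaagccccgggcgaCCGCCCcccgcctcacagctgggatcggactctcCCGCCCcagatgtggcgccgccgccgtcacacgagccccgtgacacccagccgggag
PSMC4: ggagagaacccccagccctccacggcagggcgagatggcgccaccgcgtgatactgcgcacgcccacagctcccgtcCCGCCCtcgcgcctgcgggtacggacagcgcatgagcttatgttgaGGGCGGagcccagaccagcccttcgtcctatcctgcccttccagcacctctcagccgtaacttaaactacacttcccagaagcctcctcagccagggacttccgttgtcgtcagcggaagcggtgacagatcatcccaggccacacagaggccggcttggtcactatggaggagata
AKT2: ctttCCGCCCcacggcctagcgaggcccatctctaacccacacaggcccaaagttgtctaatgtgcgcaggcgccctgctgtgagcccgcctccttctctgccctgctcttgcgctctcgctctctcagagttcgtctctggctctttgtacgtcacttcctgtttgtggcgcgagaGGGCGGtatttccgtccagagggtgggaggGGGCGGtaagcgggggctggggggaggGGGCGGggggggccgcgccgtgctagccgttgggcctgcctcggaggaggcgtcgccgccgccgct
SUPT5H: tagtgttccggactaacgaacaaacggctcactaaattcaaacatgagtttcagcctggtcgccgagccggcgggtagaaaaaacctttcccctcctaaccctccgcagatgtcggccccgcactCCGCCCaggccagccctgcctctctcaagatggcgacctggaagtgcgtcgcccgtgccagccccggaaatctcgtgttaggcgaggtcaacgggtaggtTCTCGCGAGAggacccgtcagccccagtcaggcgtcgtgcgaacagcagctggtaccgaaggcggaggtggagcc

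The PAF1 window held 3 CCAAT boxes and 2 GGGCGG matches, and the DMSO summit lay 128 bases before the PAF1 start, at the middle CCAAT box. The AKT2 window held 4 GGGCGG matches, and the SUPT5H window held the ZBTB33 match 25 bases before the start. These are descriptions of letters in a window, not of sites.

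Over the segment as a whole, 67 of 106 annotated start windows lay within 1000 bp of a DMSO summit, and these had a median of 28 CpG dinucleotides per 300 bases, against 7 in the 39 windows without one. On the rest of chromosome 19 the medians were 26 in 684 windows with a DMSO summit and 12 in 758 without. In the segment GGGCGG was found in 82.1% of windows with a summit and 43.6% of those without, against 75.1% and 57.0% on the rest of the chromosome and 56.3% of all 22132 windows in the table. CCAAT was found in 53.7% of segment windows with a summit, against 46.1% on the rest of the chromosome and 34.6% of all windows. CCGGAAG was found in 11 of 67 (16.4%), against 27.3% on the rest of the chromosome, 21.7% of all 9979 windows with a DMSO summit and 12.8% of all windows. Segment starts with a summit were thus CpG-rich windows, as on the rest of the chromosome. TATAAA, the core of the TATA box, was found in 1.49% of segment windows with a summit and in 15.4% of those without, against 4.39% and 8.05% on the rest of the chromosome, and 9.46% of all windows held it. The E-box CACGTG was found in 13.4% of segment windows with a summit and in 0 of 39 without, against 8.48% and 6.46% on the rest of the chromosome. All windows with a DMSO summit held it in 10.5% and all windows in 8.34%. The other 6 motifs searched, for NRF1, YY1, ZBTB33, ZNF143, AP-1 (TGANTCA) and the cyclic AMP response element, were in at most 2 of the 67 segment windows with a summit. No motif contains another, both strands were searched, and starts of 1 gene can share bases.

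The highest peak of the segment, and of the whole of each list, lay between the divergent starts of PAF1 and MED29, a subunit of the Mediator complex that links activators to RNA polymerase II (chr19:39390633-39391559). Its summit pileup, the number of fragments over the summit as recovered from the deposited fold enrichment and p-value, was 907 in inflachromene and 1139 in DMSO. The next highest were PLEKHG2, a guanine nucleotide exchange factor, with 588 fragments in inflachromene and 634 in DMSO, and PSMC4, an ATPase subunit of the 26S proteasome, with 482 in inflachromene and 547 in DMSO. Outside the segment no peak passed 272 fragments in inflachromene or 367 in DMSO. The segment therefore supplied 9 of the 10 highest inflachromene peaks and 7 of the 10 highest DMSO peaks, while holding 0.987% of all inflachromene peaks and 0.869% of all DMSO peaks. Of the 100 highest it supplied 30 in inflachromene and 33 in DMSO.

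**Figure D1:**
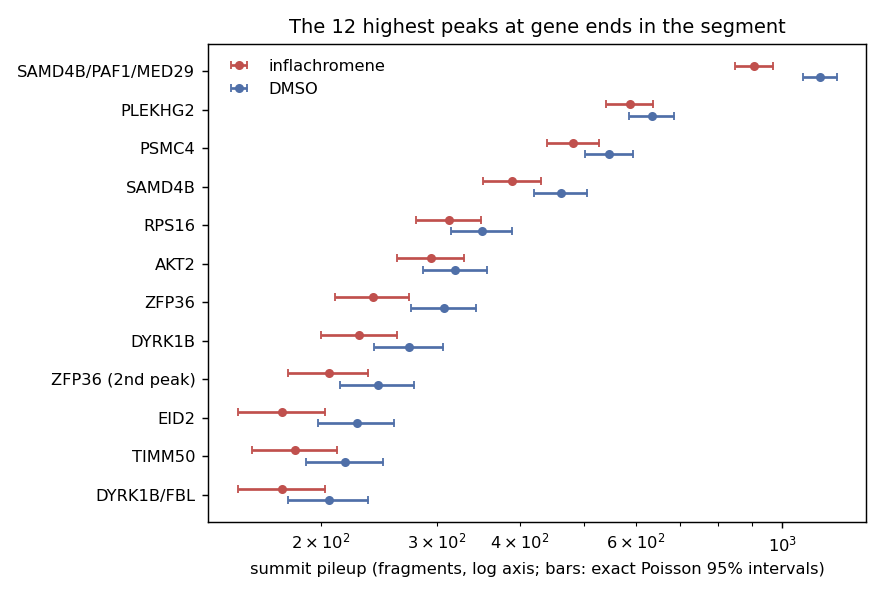
Summit pileup in fragments (horizontal log axis) of the 12 highest peaks at gene ends in the segment that were called in both lists, in inflachromene (red, upper point of each pair) and DMSO (blue), with exact Poisson 95% intervals. Every inflachromene point lies left of its DMSO point, and the intervals are apart at the PAF1/MED29 peak (907 against 1139) and at the peak downstream of ZFP36 (240 against 307).

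The strength for which the interval was picked showed in pileup but not in fold enrichment. The median pileup of segment peaks was 51 fragments in inflachromene, against 25 on the rest of chromosome 19, and 50.5 in DMSO, against 26. Peaks of 100 or more fragments made up 28.0% of segment peaks in inflachromene, against 0.632% on the rest of the chromosome, and 28.8% in DMSO, against 1.28%. The local background, the fragments per base that the peak caller takes from the surroundings of a peak, was higher as well, with a median of 8.59 in inflachromene, against 2.24 on the rest of the chromosome, and 7.98 in DMSO, against 2.25. Its ratio between the segment and the rest was 3.84 in inflachromene and 3.55 in DMSO, larger than the ratio of the pileups, 2.04 in inflachromene and 1.94 in DMSO. The sources used here name no control library, and the background was taken to come from the same library. It can then hold fragments of the peak itself and of its neighbours, so it is not independent of strong, dense peaks. Their part in it was not tested.

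The median fold enrichment, which sets pileup against background, was accordingly lower in the segment, at 6.60 in inflachromene, against 7.97 on the rest of the chromosome, and 6.51 in DMSO, against 8.08. Only 3 of the 100 inflachromene peaks and 2 of the 100 DMSO peaks of highest fold enrichment in all lay in the segment. The median −log10 p was higher in the segment, at 25.6 against 17.5 in inflachromene and 26.4 against 18.7 in DMSO, a measure that rises with fragment number at a given fold. Segment peaks were also wider, with medians of 365 bp against 308 bp in inflachromene and 375.5 bp against 306 bp in DMSO.

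**Figure D2:**
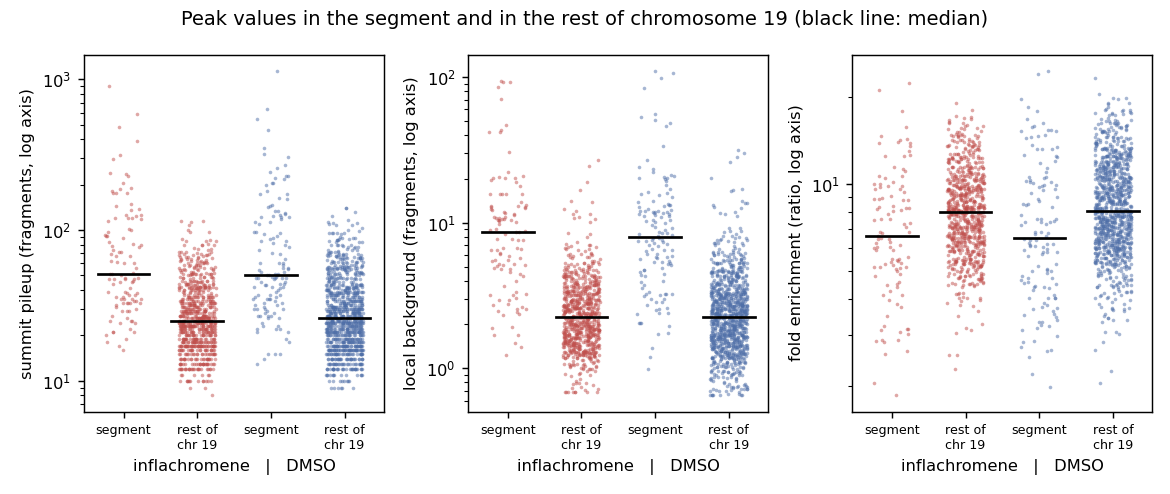
Summit pileup, local background and fold enrichment (log axes) of each peak in the segment and in the rest of chromosome 19, in inflachromene (red, left pair) and DMSO (blue, right pair), with black lines at the medians. Pileup and background are shifted upward in the segment in both lists, while the median fold enrichment is lower (6.60 against 7.97 in inflachromene and 6.51 against 8.08 in DMSO).

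The density for which the interval was picked showed in peaks per Mb, per gene and between neighbours. The segment carried 35.7 peaks per Mb in inflachromene, against 14.2 on the rest of the chromosome, and 44.0 in DMSO, against 18.3. Protein-coding genes were only slightly denser, at 29.7 per Mb against 24.5, so that peaks per gene were 1.2 against 0.581 in inflachromene and 1.48 against 0.748 in DMSO. Neighbouring summits lay a median of 17.6 kb apart in inflachromene, against 31.7 kb on the rest of the chromosome, and 13.9 kb in DMSO, against 26.3 kb. A higher background and pileup make more sites reach a fixed p threshold, and the part of this in the density was not tested. When pileup and background of each segment peak were both divided by the single ratio of median backgrounds, 71 of 107 inflachromene peaks and 93 of 132 DMSO peaks kept a p at or below the weakest of their list. These left 23.7 peaks per Mb in inflachromene and 31.0 in DMSO, which describes peaks chosen for their density; their own backgrounds ran from 1.24 to 94.0 in inflachromene and from 0.983 to 110.6 in DMSO.

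Along the segment the background was highest near the middle and lowest in the bin before the upper bound. In bins of 0.5 Mb from the lower bound upward, its median over inflachromene peaks was 5.31, 7.65, 15.8, 13.8, 8.13 and 2.46 fragments per base. Over DMSO peaks it was 6.07, 8.11, 15.7, 11.7, 8.48 and 2.52. The first 5 bins each lay above every other bin of chromosome 19 with at least 5 peaks, whose highest medians were 5.19 in inflachromene and 4.94 in DMSO. The last bin was like the rest of the chromosome. Median fold enrichment was lowest in the third bin, at 4.69 in inflachromene and 5.0 in DMSO, and highest in the last, at 8.60 in inflachromene and 8.57 in DMSO. It did not follow the background in every bin, since the fourth bin, with the second highest background, had 8.12 in inflachromene and 6.82 in DMSO.

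The drop was abrupt within one gene. A peak inside C19orf47 (chr19:40305409-40305634), had a background of 8.60 in inflachromene and 8.48 in DMSO, and the next one, at the shared start of C19orf47 and PLD3 (chr19:40348367-40348742), had 1.70 in inflachromene and 1.73 in DMSO. At the lower bound, the last DMSO peak outside lay in SIPA1L3, a RAP GTPase-activating protein, with 16 fragments over a background of 2.23. The first inside lay in the same gene with 18 fragments over 2.06, and the next, in DPF1, a BAF complex subunit, had 50 over 5.89. At the upper bound, the last peak inside had 21 fragments over 1.70 in inflachromene and 26 over 2.05 in DMSO. The first outside had 11 over 1.18 in inflachromene, at CYP2F1, and 15 over 1.2 in DMSO, at LOC124904790. The bounds of the rule thus lay outside the raised stretch on both sides.

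**Figure D3:**
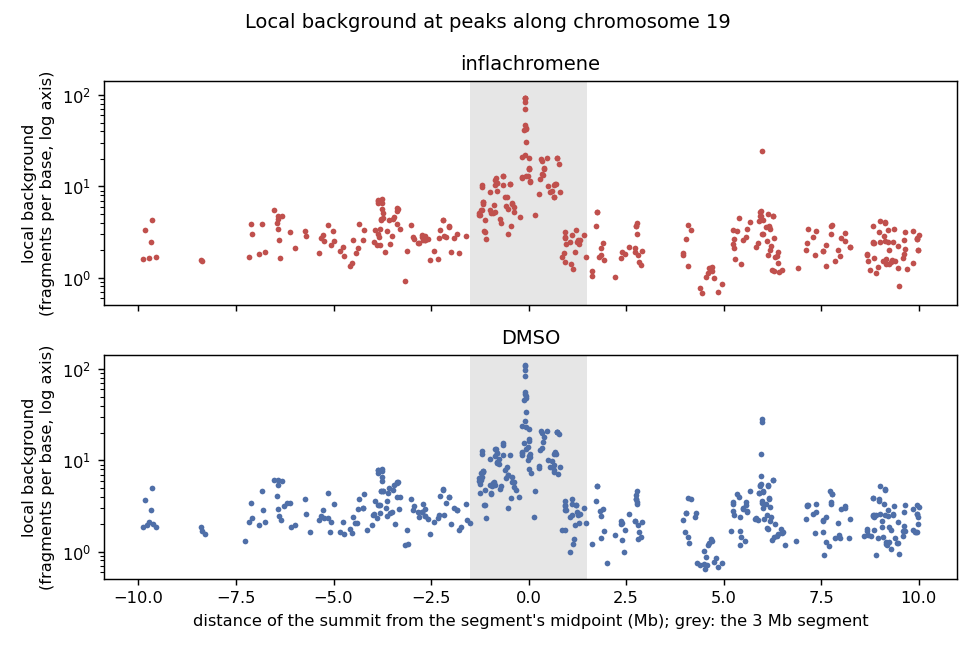
Local background at each peak (vertical log axis, fragments per base) by distance of its summit from the midpoint of the segment in Mb, in inflachromene (upper panel) and DMSO (lower panel), with the 3.0 Mb segment in grey. The highest values, 94.0 in inflachromene and 110.6 in DMSO, stand in one narrow column near the midpoint, and the right end of the grey band is back at the level of its surroundings.

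Among windows of 3.0 Mb the segment stood first on chromosome 19 in number of peaks and in median background in both lists. Over all chromosomes, among windows with at least 20 peaks, its background ranked 1 of 149 in inflachromene, where the next window had 3.93, and 1 of 244 in DMSO, where the next had 4.22. Its number of peaks ranked 1 in inflachromene and 2 in DMSO, where the window from 26 to 29 Mb of chromosome 6 had 103 in inflachromene and 135 in DMSO. Its median fold enrichment ranked 146 of 149 in inflachromene and 236 of 244 in DMSO. The segment thus led in background and came near the end in enrichment.

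The centre of the raised stretch was a run of peaks between MED29 and RPS16. ZFP36, whose product tristetraprolin binds AU-rich elements and speeds the decay of messenger RNA, had 206 fragments in inflachromene and 244 in DMSO at its start (chr19:39406649-39407266). Its downstream peak (chr19:39409477-39410380) had 240 in inflachromene and 307 in DMSO, over a background of 92.4 in inflachromene and 107.7 in DMSO, and covered the hairpin of MIR4530. The other 3 annotated microRNA hairpins of the segment had no peak. The next peak, between ZFP36 and PLEKHG2, had 175 fragments in inflachromene and 220 in DMSO and lay within 1000 bp of TRI-TAT1-1, a transfer RNA gene, as did the PLEKHG2 peak. Its background was the highest of the segment, 94.0 in inflachromene and 110.6 in DMSO, and its fold enrichment the lowest, 1.85 in inflachromene and 1.98 in DMSO. A further peak between PLEKHG2 and RPS16 had 234 fragments in inflachromene and 259 in DMSO, and RPS16, a protein of the small ribosomal subunit, had 313 in inflachromene and 351 in DMSO at its start.

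Both lists had an end peak at all 12 genes of the transcription and RNA-binding list. Over all protein-coding genes, 38.2% had an inflachromene peak and 45.8% a DMSO peak within 1000 bp of an end; in the segment 59 of 89 (66.3%) had an inflachromene peak and 62 of 89 (69.7%) a DMSO peak. SAMD4B, an RNA-binding protein of the Smaug family, had 390 fragments in inflachromene and 462 in DMSO at its start (chr19:39341849-39342543), and the PAF1 and MED29 peak lay within 1000 bp of its other end. SUPT5H, a subunit of the pausing and elongation factor DSIF, had 121 in inflachromene and 181 in DMSO. HNRNPL, a splicing regulator, had 149 in inflachromene and 161 in DMSO at a peak 484 bases before one of its starts. That peak lay inside the gene, and the HNRNPL end peak counted here had 72 in inflachromene and 97 in DMSO. EID2, an inhibitor of EP300-dependent differentiation, had 175 in inflachromene and 227 in DMSO, and its neighbour EID2B had 137 in inflachromene and 142 in DMSO. At the lower end of the list were SERTAD3, a coregulator with a SERTA domain, with 22 in inflachromene and 29 in DMSO, and SNRPA, a protein of the U1 snRNP, with 39 in inflachromene and 60 in DMSO. The gene-level pileup ratio of inflachromene to DMSO had a median of 0.78 over the list and was below 1 at 12 of 12 genes, of which SAMD4B, PAF1 and MED29 count the same peak. Over all segment genes with a peak in both lists the median was 0.80, with 47 of 56 below 1, and 77.4% of such genes over all chromosomes were below 1.

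The 11 partner genes of these factors that lie elsewhere also had peaks in both lists, beside 7304 of 19974 protein-coding genes in all. CDC73, like PAF1 a subunit of the polymerase-associated factor complex, had 54 fragments in inflachromene and 82 in DMSO. NELFE, a subunit of the pausing factor NELF, had 41 in inflachromene and 44 in DMSO, and CTR9, another subunit of the PAF complex, had 28 in inflachromene and 47 in DMSO. Over the 11 genes the pileup lay between 11 and 54 fragments in inflachromene and between 9 and 82 in DMSO, below the start peaks of both PAF1 and SUPT5H. By fold enrichment SUPT5H, with 8.76 in inflachromene and 12.6 in DMSO, was below CDC73, with 11.7 in inflachromene and 16.5 in DMSO, and NELFE, with 13.9 in inflachromene and 14.9 in DMSO. The PAF1 peak, with 21.1 in inflachromene and 24.0 in DMSO, was above all 11 partner genes by fold enrichment too.

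All 7 genes of the translation and proteasome list, and all 7 of the mitochondrial list, had peaks in both lists. So did 56 of 89 segment genes and 7304 of 19974 protein-coding genes in all. FBL, fibrillarin, which methylates ribosomal RNA, had 119 fragments in inflachromene and 173 in DMSO at its start (chr19:39846107-39846585). The peak counted for FBL in the ratios was the one near its 3′ end, with 175 in inflachromene and 206 in DMSO. EIF3K, a subunit of initiation factor 3, had 100 in inflachromene and 113 in DMSO, and the shared start of SARS2, the mitochondrial seryl-tRNA synthetase, and MRPS12, a mitochondrial ribosomal protein, had 101 in inflachromene and 113 in DMSO. PSMD8, a second proteasome subunit near the lower end of the segment, had fewer fragments, 60 in inflachromene and 82 in DMSO, yet a fold enrichment of 14.6 in inflachromene and 19.6 in DMSO. TIMM50, a part of the inner-membrane import machinery, had 183 in inflachromene and 218 in DMSO, and ECH1, an enzyme of fatty acid oxidation, had 91 in inflachromene and 123 in DMSO. BLVRB, a biliverdin reductase, had 33 in inflachromene and 56 in DMSO, the lowest ratio among shared peaks of the segment (0.589). Pileup ratios were below 1 at 7 of 7 genes in each gene list, beside 77.4% of all genes with a peak in both peak lists. SARS2 and MRPS12 are in both gene lists and share 1 peak.

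Among 18 genes for kinases and signalling, 14 had peaks in both lists and 4 in neither, beside 56 of 89 segment genes with peaks in both. AKT2 had 294 fragments in inflachromene and 320 in DMSO (chr19:40284933-40285804), with the same fold enrichment to 1 decimal, 15.7 in each. DYRK1B, a kinase of the DYRK family, had 229 in inflachromene and 272 in DMSO at its 3′ end and 175 in inflachromene and 206 in DMSO at its start, and the start peak lies within 1000 bp of the FBL 3′ end too. SIRT2, a deacetylase, and NFKBIB, an inhibitor of NF-κB, shared a start peak of 115 fragments in inflachromene and 134 in DMSO. PAK4 had 67 in inflachromene and 97 in DMSO (chr19:39125535-39125932), with a fold enrichment of 9.81 in inflachromene and 14.5 in DMSO. MAP3K10, a mixed-lineage kinase, had 56 in inflachromene and 74 in DMSO. The 3 genes of this list with more fragments in inflachromene were PPP1R14A, an inhibitor of protein phosphatase 1, with 37 against 32 in DMSO, EGLN2, a prolyl hydroxylase of the hypoxia pathway, with 45 against 43 in DMSO, and SPRED3, an inhibitor of RAS signalling, with 50 against 48 in DMSO. The median ratio of the list was 0.88, with 11 of 14 below 1, near the 77.4% of genes with a peak in both lists over all chromosomes. The counted peak of SIPA1L3 lay just below the lower bound, and MAP4K1, HIPK4, RASGRP4 and LTBP4 had no peak at an end.

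The 3 KRAB zinc finger genes at the upper flank of the raised stretch, whose products bind DNA and recruit repressors, each had a start peak in both lists. An end peak in both lists was at 56 of 89 segment genes. ZNF546 had 97 fragments in inflachromene and 122 in DMSO, ZNF780B had 78 in inflachromene and 124 in DMSO, and ZNF780A had 74 in inflachromene and 110 in DMSO. These 3 and the F-box genes had the lowest list medians of the pileup ratio, 0.67 and 0.70. FBXO27, a substrate receptor for glycoproteins, had 145 in inflachromene and 198 in DMSO, FBXO17 had 33 in inflachromene and 50 in DMSO at its start, and NCCRP1 had no peak.

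Of 9 genes for cytoskeleton, membrane and traffic, 2 had peaks in both lists, beside 56 of 89 segment genes and 7304 of 19974 in all. ACTN4, an actin cross-linker, had 93 fragments in inflachromene and 123 in DMSO at its start, and 6 further DMSO peaks inside it, 5 of which were also called in inflachromene. RAB4B, a recycling GTPase, had 34 in inflachromene and 33 in DMSO. SPINT2, a protease inhibitor, GMFG, a regulator of ARP2/3, and CAPN12, a calpain, had an end peak in DMSO alone, with 30, 60 and 35 fragments. SPTBN4, a spectrin, and SHKBP1 share the only peak, of 19 fragments, that counted for them in inflachromene alone. YIF1B, a transport protein of the early secretory pathway, counted as having none, since its gene model extends beyond the start used; it had 89 in inflachromene and 94 in DMSO within 200 bases of an annotated start. KCNK6, a potassium channel, had none.

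Among genes of restricted expression, 5 of 10 tissue-restricted genes, 2 of 7 galectins, 1 of 3 type III interferons and 0 of 3 CYP2 genes had a DMSO end peak, beside 45.8% of all protein-coding genes. With an inflachromene end peak there were 4 of 10 tissue-restricted genes, 2 of 7 galectins, 1 of 3 type III interferons and 0 of 3 CYP2 genes, beside 38.2%. None of the 3 CYP2 genes of the segment had one, nor did LGALS4, LGALS13, LGALS14, LGALS16 or CLC among the galectins, or SYCN, LEUTX, PRX, RYR1 and FCGBP among 10 tissue-restricted genes. LGALS7 had 29 fragments in inflachromene and 21 in DMSO, and its near-copy LGALS7B had 21 in inflachromene and 32 in DMSO. Both peaks lay at the 3′ ends, 1817 and 1816 bases from the starts, and whether fragments are split between the copies there was not tested. CATSPERG, part of a sperm calcium channel, had 69 in inflachromene and 89 in DMSO at its start, and GGN, a gene of sperm formation, shares its start peak of 50 in inflachromene and 48 in DMSO with SPRED3. LRFN1, a synaptic adhesion protein, had 35 in inflachromene and 48 in DMSO, and SELENOV, a selenoprotein of the testis, had 37 in DMSO alone. MIA shares the RAB4B peak. Of the 24 segment genes with no end peak, 6 had a peak elsewhere in the gene, namely YIF1B, RYR1, MAP4K1, FCGBP, PRX and LTBP4, and 18 had neither.

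The type III interferons are antiviral cytokines that act on epithelia, and 2 of their genes each had a start peak in 1 list alone. IFNL2 had 24 fragments in inflachromene (chr19:39268194-39268413), and IFNL3 had 24 in DMSO (chr19:39245233-39245456). Their start windows, IFNL2 at chr19:39268146-39268445 on the plus strand and IFNL3 at chr19:39245201-39245500 on the minus strand, are shown to make their likeness visible, with the only base that differs in capitals.
IFNL2: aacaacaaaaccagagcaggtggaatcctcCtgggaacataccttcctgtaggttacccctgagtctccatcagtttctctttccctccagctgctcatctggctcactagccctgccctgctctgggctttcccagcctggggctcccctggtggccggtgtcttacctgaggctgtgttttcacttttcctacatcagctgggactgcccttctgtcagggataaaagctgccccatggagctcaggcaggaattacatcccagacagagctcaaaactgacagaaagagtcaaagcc
IFNL3: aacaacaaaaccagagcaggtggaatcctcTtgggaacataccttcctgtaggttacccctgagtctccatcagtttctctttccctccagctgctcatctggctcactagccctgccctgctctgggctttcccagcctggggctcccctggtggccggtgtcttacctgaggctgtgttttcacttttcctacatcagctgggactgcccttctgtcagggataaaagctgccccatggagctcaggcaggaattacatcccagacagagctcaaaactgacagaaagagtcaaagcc

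The windows are identical at 299 of 300 bases, so fragments from one copy can be placed at the other, and the 2 peaks cannot be told apart as separate events. The sources used here do not say how the authors placed such fragments. IFNL1, the third protein-coding member in the segment, had no peak, and IFNL4, which RefSeq lists as a transcribed pseudogene and which was therefore not counted, lies within 1000 bp of the IFNL3 peak.

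Most segment peaks had a counterpart in the other list. Of 132 DMSO peaks, 32 (24.2%, exact 95% interval 17.2 to 32.5, which covers counting error only) overlapped no inflachromene peak, against 313 of 1019 (30.7%, 27.9 to 33.7) on the rest of the chromosome and 35.5% over all chromosomes. Of 107 inflachromene peaks, 5 (4.67%, 1.53 to 10.6) overlapped no DMSO peak, against 10.9% on the rest of the chromosome and 9.62% over all chromosomes. At the level of genes, 6 of 62 segment genes with a DMSO peak (9.68%) had none in inflachromene, against 18.8% on the rest of the chromosome and 20.2% over all. The intervals for DMSO peaks in the segment and on the rest of the chromosome overlap. The difference between these shares was not tested.

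DMSO peaks with no inflachromene counterpart were the weaker ones. Their medians were 30 fragments, a fold enrichment of 4.37 and a width of 225 bp, against 69.5 fragments, 8.37 and 424 bp for DMSO peaks that had one. With all DMSO peaks sorted by fold enrichment into 5 groups of equal size, 28 of 56 segment peaks in the weakest group had no counterpart, then 3 of 15, 1 of 15, 0 of 18 and 0 of 28 toward the strongest. The 0 of 28 allows a share of up to 12.3% (exact interval). On the rest of the chromosome the shares were 61.0%, 51.0%, 32.0%, 15.2% and 1.78%. With the makeup by fold of the segment, the rest of the chromosome would have had 37.7%, and with its makeup by −log10 p 22.2%. Beside the 24.2% measured, the comparison thus turned on which measure of strength was matched.

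**Figure D4:**
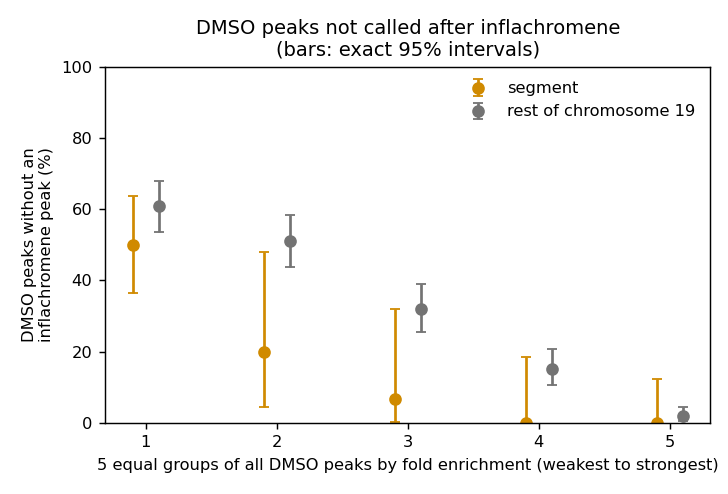
Share of DMSO peaks without an inflachromene peak (vertical axis, %) over 5 equal groups of all DMSO peaks by fold enrichment, weakest to strongest, in the segment (orange) and the rest of chromosome 19 (grey), with exact 95% intervals. In the weakest group the shares are 50% and 61.0%, and in the strongest 0% and 1.78%.

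The members called in 1 list alone are described by pileup and fold enrichment. The DMSO-alone peak with the most fragments had 118, between MED29 and ZFP36 (chr19:39402550-39402775), over a background of 53.3, so that its fold enrichment was only 2.19. By fold enrichment the highest among those at or inside genes were a peak inside SPTBN4, with 14 fragments and 7.57-fold enrichment, and peaks inside LTBP4, a binding protein of latent TGF-β, with 23 (6.79-fold) and 21 (4.64-fold). The IFNL3 peak (5.0-fold), the GMFG peak (4.93-fold) and the peak inside SIPA1L3 (6.22-fold) completed the first 6. The 5 peaks of inflachromene alone lay at SPTBN4 and SHKBP1 (8.30-fold), inside PRX (6.60-fold), at IFNL2 (4.46-fold), beside the main FBXO27 peak (3.07-fold) and inside FCGBP (2.88-fold), with 18 to 47 fragments each.

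At the 100 shared positions the inflachromene pileup was lower at 85 and higher at 15, where 74.7% of shared peaks were lower over all chromosomes and 72.8% on the rest of chromosome 19. The median ratio of inflachromene to DMSO was 0.804 (interval of the median 0.771 to 0.856) and ranged from 0.589 to 1.38, against 0.842 (0.821 to 0.864) over 706 positions on the rest of the chromosome. Among positions with a mean of 50 or more fragments it was 0.796 over 56 positions, with 53 below 1, against 0.834 over 128. The background ratio was 0.924 in the segment, against 0.941, and the fold enrichment ratio was 0.878, against 0.891, with the fold lower in inflachromene at 81 of 100, against 75.3% over all chromosomes. The segment thus shared the shift of the whole list toward fewer fragments in inflachromene. Pileups were not rescaled for depth and read totals are not in the lists. The part of library size in this shift was not tested. By position the median ratio was 0.808 at gene ends (52 peaks), 0.753 inside genes (26) and 0.877 between genes (22).

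At 10 of the 100 shared positions the exact Poisson 95% interval of the inflachromene pileup lay wholly below that of DMSO, and at none above, against 1.46% below over all chromosomes and 7 of 706 on the rest of chromosome 19. These intervals are narrower where pileups are high, as they are here, and they are of pileups not rescaled for depth. Among the 10 were the PAF1 and MED29 start, the downstream ZFP36 peak and the starts of SUPT5H, FBL and ZNF780B. The main FBXO27 peak, with its DMSO summit 888 bases after the start, was another. The others lay inside MED29 (124 in inflachromene, 206 in DMSO), inside RYR1 (121 in inflachromene, 173 in DMSO), inside FBXO17 (77 in inflachromene, 125 in DMSO) and between genes (83 in inflachromene, 127 in DMSO, chr19:38300608-38301106). The 5 next strongest starts after PAF1, from PLEKHG2 to AKT2, had overlapping intervals and ratios between 0.844 and 0.927.

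**Figure D5:**
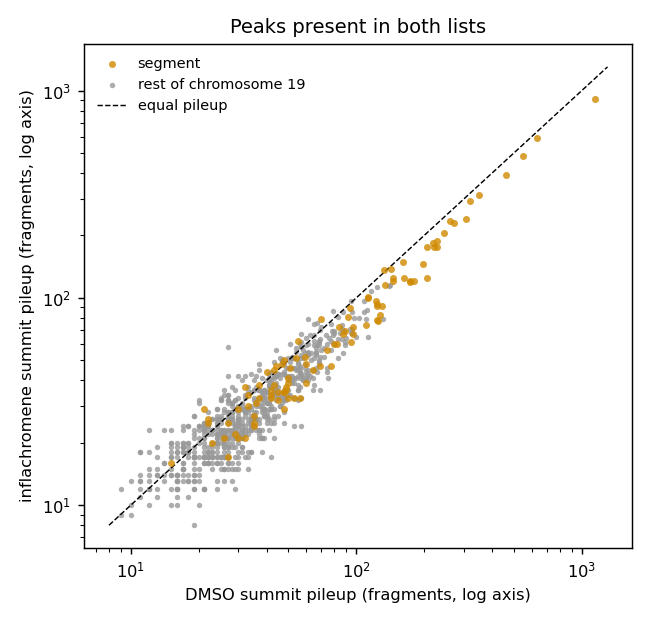
Summit pileup in inflachromene (vertical log axis, fragments) against DMSO (horizontal log axis, fragments) for peaks called in both lists, in the segment (orange, 100 peaks) and the rest of chromosome 19 (grey, 706 peaks), with a dashed line of equal pileup. Segment peaks lie mostly below the line, 85 of 100, and extend far beyond the rest of the chromosome on both axes.

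The share of peaks at gene ends was lower in the segment than on the rest of the chromosome. The exact intervals were apart for DMSO peaks and overlapped for inflachromene peaks. They cover counting error only and take neighbouring peaks as independent, and no test was made. Of inflachromene peaks, 57 of 107 (53.3%, 43.4 to 63.0) lay within 1000 bp of an end of a protein-coding gene, against 60.8% (57.3 to 64.2) on the rest of the chromosome. Of DMSO peaks 59 of 132 did (44.7%, 36.0 to 53.6), against 57.5% (54.4 to 60.6). Peaks between genes made up 20.6% in inflachromene, against 13.1%, and 25.8% in DMSO, against 14.1%. At annotated starts lay 47 inflachromene peaks and 49 DMSO peaks, with the summit a median of 68 bases before the start in inflachromene and 88 in DMSO. No inflachromene counterpart was called for 7 of 59 DMSO peaks at ends, 13 of 39 inside genes and 12 of 34 between genes. The order was the same on the rest of the chromosome, at 23.9% at ends, 37.4% inside and 45.1% between genes.

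Peaks away from ends included some of high pileup in genes with no end peak. RYR1, the calcium release channel of skeletal muscle, had 5 DMSO peaks in its body, the largest with 121 fragments in inflachromene and 173 in DMSO (chr19:38506912-38507619), 73467 bases from its start. FCGBP, an IgG-binding protein of mucus, had one of 91 in inflachromene and 130 in DMSO (chr19:39897812-39898211). DLL3, an inhibitory NOTCH ligand, had 125 in inflachromene and 163 in DMSO inside the gene (chr19:39506957-39507598), and 52 in inflachromene and 59 in DMSO at an end. Between genes, the peak 14349 bases from an annotated start of LEUTX had 125 in inflachromene and 146 in DMSO (chr19:39792930-39793468). What these positions are was not analysed here.

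The labelled cell type was set against peaks at defining genes elsewhere, of which 3 of 6 epithelial and duct genes and 3 of 4 mesenchymal genes had peaks in both lists. Over all protein-coding genes 7304 of 19974 did, with 38.2% in inflachromene and 45.8% in DMSO, so counts this small do not identify a cell type. Peaks lay at KRT8 and KRT18 (1 shared peak, 30 fragments in inflachromene and 34 in DMSO), SOX9 (35 in inflachromene, 44 in DMSO), VIM (39 in inflachromene, 40 in DMSO) and CAV1 (42 in inflachromene, 55 in DMSO), which mark epithelial, duct and mesenchymal cells, and at AXL, a mesenchymal marker (29 in inflachromene, 31 in DMSO, at an end shared with HNRNPUL1). KRT19 (19 fragments) and ZEB1 (17) had a peak in DMSO alone, and KRT7 and EPCAM had none. None of 7 acinar and islet genes, SYCN of the segment included, and none of 3 endothelial genes had a peak in either list. SPI1, an immune regulator, had 18 fragments in each list, CD14 had 10 in inflachromene alone, and the other 3 of 5 immune genes had none. Of 4 neuronal and liver genes, SYT1 had a peak of 14 fragments in DMSO alone and the other 3 had none.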

How the data were processed

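ChIPmentation peak lists of 2 samples of the Panc1 line were analysed, 1 treated with inflachromene and 1 with DMSO. Per the submitters' processing notes, MACS2 (version not given there) and deepTools 3.5.6 were used with hg38. The sources used here do not give the aligner, the handling of duplicates or any control library. Every row of the deposited lists has a score, which was not used, the summit's fold enrichment (a ratio to local background), and −log10 p-values and −log10 q-values. The lowest deposited −log10 q was 3.01 in inflachromene and 3.02 in DMSO.

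Chromosomes 1 to 22 and X were used, with 10836 of 10991 inflachromene peaks and 15186 of 15354 DMSO peaks. Read totals are not in the lists. The whole-number pileup was recovered for every peak from (pileup + 1)/(background + 1) and the Poisson p, within 0.001 of the deposited −log10 p. That reading of the caller's formulas is an inference from the values. On simulated data, 1000 of 1000 pileups were recovered, which tests the solver, not the formulas. The lowest background, which depends on the library total and on fragment length, was 0.683 in inflachromene and 0.651 in DMSO. The narrowest peak was 165 bp in inflachromene and 152 bp in DMSO, so the lowest background does not rank the libraries by depth. Pileups were not rescaled for depth.

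Peaks overlapping by at least 1 bp counted as shared. Genes were those of a RefSeq table (GRCh38.p14, the coordinates of hg38), 19974 protein-coding in all and 89 in the segment, with a window of 1000 bp at both ends; start windows and strands came from a RefSeq start table, which has 82 of the 89. Python 3.11.15, numpy 2.4.6, pandas 2.3.3, scipy 1.17.1, matplotlib 3.10.9 and Biopython 1.88 were used. Intervals are exact (Clopper-Pearson for shares, Poisson for pileups) and cover counting error only. With 1 sample per group no test was made.

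The segment, its members and the gene lists were chosen with earlier results of these data known. Genes were named by rule: those at the 12 highest DMSO peaks at gene ends, at the 6 DMSO-alone peaks of highest fold, at every inflachromene-alone peak, and up to 4 genes per list by mean pileup. Genes inside which strong peaks lay, those at the ends of a list, and those at the bounds were added after their values were seen. Alternatives covered the q threshold, bounds, comparison region, overlap rule, list length and end window.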

Additional observations from a re-analysis of the deposited data

How the results depend on the processing

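Of 75 alternative values computed, 65 stayed within counting error of the reported value, or within 1.5 times for counts and density ratios. No ratio of segment to rest of the chromosome crossed 1; overlap shares, pileup ratios, gene counts and position shares were recomputed in the segment alone. Against all other chromosomes the density ratio was 10.7 in inflachromene and 9.31 in DMSO in place of 2.51 and 2.40; those chromosomes hold 6.23 genes per Mb, against 29.7 in the segment. With pileup and background divided by the background ratio the density ratio was 1.66 in inflachromene and 1.69 in DMSO, lower by construction. The DMSO value was within 1.5 times of the reported 2.40, and the inflachromene value was not within 1.5 times of 2.51. The ratio of median fold enrichment in inflachromene, 0.828, was 0.699 with the bounds 0.5 Mb further in on each side, which leaves out the last bin; the cause was not tested. As pileup over background with nothing added, an alternative chosen after seeing the data, it was 0.658, and in DMSO 0.595 in place of 0.806; the added 1 weighs more on low backgrounds. With the DMSO list held to the inflachromene length, 11.1% of segment DMSO peaks lacked a counterpart in place of 24.2%, and 1 gene in place of 6 was in DMSO alone, since the weakest peaks are left out. The fold enrichment ratio was 0.878 where the pileup ratio was 0.804, with a background ratio of 0.924. With a window of 2500 bp, 55.3% of DMSO peaks were at gene ends in place of 44.7%. No paired analysis was possible because each treatment has 1 sample. A difference between the treatments cannot be told apart from one between 2 cultures or libraries. Depth limits peaks of few fragments most.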
